A study of Mus musculus with 12 samples.

Results

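The genes described here mark the blood vessels of the brain: 24 genes of endothelial cells and the blood-brain barrier, and 13 of the pericytes and smooth muscle cells (together, mural cells) that wrap those vessels. They were chosen by name from the annotation that the files use. Of the 37 names, 36 were found among 55536 annotated genes. *Vtn2* is not a gene name in that annotation and has no value here. RNA of whole cerebellum and whole cerebral cortex had been sequenced from 1-month-old WT mice and from *Snx14*-KO mice, which were homozygous throughout the body for a frameshift deletion of 1 bp in *Snx14*. WT mice were littermates, and both genotypes had a C57BL/6J background. Each of the 4 groups held 3 libraries from mice numbered 1 to 3, with the same numbers in both tissues of a genotype, so 12 libraries in all, and the labels give the cells as a mixture. Because every cell carried the deletion, a difference could not be assigned to vessel cells. In bulk tissue, fewer cells of a type and less RNA per cell cannot be told apart.

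Brain endothelial cells are sealed to each other by tight junctions, carry few vesicles, and move nutrients and lipids by dedicated transporters while efflux pumps return drugs to the blood. Wnt ligands from neural cells, received through a frizzled receptor, hold endothelial cells in that state. Pericytes, recruited by endothelial PDGF-B through PDGFRβ, sit in the wall of capillaries and help to keep the barrier closed, and smooth muscle cells ring the arterioles and set their diameter. SNX14 is a protein of the endoplasmic reticulum at contacts with lipid droplets, and the comparisons below ask how far RNA of vessel genes differed with its loss and between the brain regions.

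Promoter sequences are shown for the endothelial members that differed most between cerebellum and cortex (values are given further on), since gene counts sum over all start sites. RefSeq promoter windows (GRCm38.p6, 250 bases before to 50 after a start) were matched for 24 of the 37 members. The 100 bases before each start, where they held no more than a short stretch of annotated exon, are printed 5′ to 3′ on the strand of the gene. Capitals mark AGGAAG or its reverse complement CTTCCT, a motif of Ets factors, the family of the endothelial regulators *Erg* and *Fli1*.
Egfl7, chr2:26580983-26581082, plus strand: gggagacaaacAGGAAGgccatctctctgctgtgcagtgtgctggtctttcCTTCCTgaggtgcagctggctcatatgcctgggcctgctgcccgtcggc
Egfl7, chr2:26583765-26583864, plus strand: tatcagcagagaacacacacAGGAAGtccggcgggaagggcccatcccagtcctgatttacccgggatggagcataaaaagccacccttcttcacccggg
Egfl7, chr2:26586536-26586635, plus strand: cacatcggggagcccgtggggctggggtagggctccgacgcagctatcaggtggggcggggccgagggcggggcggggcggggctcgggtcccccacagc
Pltp, chr2:164857709-164857808, minus strand: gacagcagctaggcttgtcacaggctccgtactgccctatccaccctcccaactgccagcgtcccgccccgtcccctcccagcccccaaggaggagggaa
Ocln, chr13:100552719-100552818, minus strand: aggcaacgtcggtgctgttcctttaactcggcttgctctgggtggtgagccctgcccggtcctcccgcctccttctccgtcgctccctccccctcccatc

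The first *Egfl7* stretch held 2 matches, the next held 1, and the third, *Pltp* and *Ocln* stretches held 0. Over whole windows and both strands, AGGAAG was in 10 of 24 members (41.7%) and in 38.4% of all 27025 genes with a window. ACAAAG, a motif of Sox and TCF factors, was in 5 of 24 members (20.8%) and in 21.0% of genes. The CArG box, which binds serum response factor in smooth muscle genes, was in 0 of 24 members and in 1.81% of genes, and in 2 of the 16 other smooth muscle genes with a window, *Myl9* and *Srf*. Of the smooth muscle members, *Acta2*, *Cnn1* and *Des* had a window. ACAAAG can overlap AGGAAG by its last 2 letters, and a match is a description of the window only.

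*Egfl7*, which encodes a secreted protein of endothelial cells, is also the host gene of an endothelial microRNA. Its RefSeq mature sequence lies at chr2:26591402-26591423 on the plus strand, and capitals mark the seed (bases 2 to 8).
mmu-miR-126a-3p: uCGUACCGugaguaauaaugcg

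The hairpin lay within the span of 9 of 19 annotated *Egfl7* transcripts, inside an intron in 8 and overlapping an exon in 1. The precursor had 0 to 2 counts per library, 4 in all 12, so the libraries do not measure the microRNA.

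Levels between genes were compared per length, as library-scaled counts (CPM) per kilobase of exon, in the WT groups (mean ± SD, n = 3). *Bsg*, which encodes basigin, a chaperone of lactate transporters that is also made outside vessels, was at 299.9 ± 29.1 in cerebellum and 194 ± 6.11 in cortex and stood above every other member. *Pltp*, a lipid transfer protein gene, followed in cerebellum at 51.7 ± 5.53 but was at 11.3 ± 1.31 in cortex. *Itm2a*, a membrane protein gene of endothelium, was at 25.4 ± 3.99 and 24.9 ± 3.56. *Slc2a1*, the glucose transporter GLUT1, was at 23.7 ± 1.55 and 17.9 ± 2.06, and *Rgs5*, a G-protein regulator of pericytes, at 15.2 ± 1.89 and 16.9 ± 2.83. *Itm2a* and *Slc2a1* did not differ beyond their spread in cerebellum, nor did *Slc2a1* and *Rgs5* in cortex. *Cldn5*, the main claudin of the barrier, was at 12.4 ± 0.77 and 8.98 ± 0.815, whereas the endothelial cadherin gene *Cdh5* was at 1.85 ± 0.272 and 1.57 ± 0.293. Among the lowest were *Des* (0.706 ± 0.111 and 0.251 ± 0.0287) and *Cnn1* (0.141 ± 0.0829 and 0.146 ± 0.0285), both of smooth muscle. Defining markers of both cell classes were thus present in all groups. *Cspg5* went against the name of its class: at 10.6 ± 1.62 and 32.4 ± 0.93 it was several times above *Pdgfrb* (2.75 ± 0.304 and 2.57 ± 0.161), and it is known as a proteoglycan of neural cells. It was kept as a member, and medians between genotypes and between tissues are given with and without it.

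**Figure D1:**
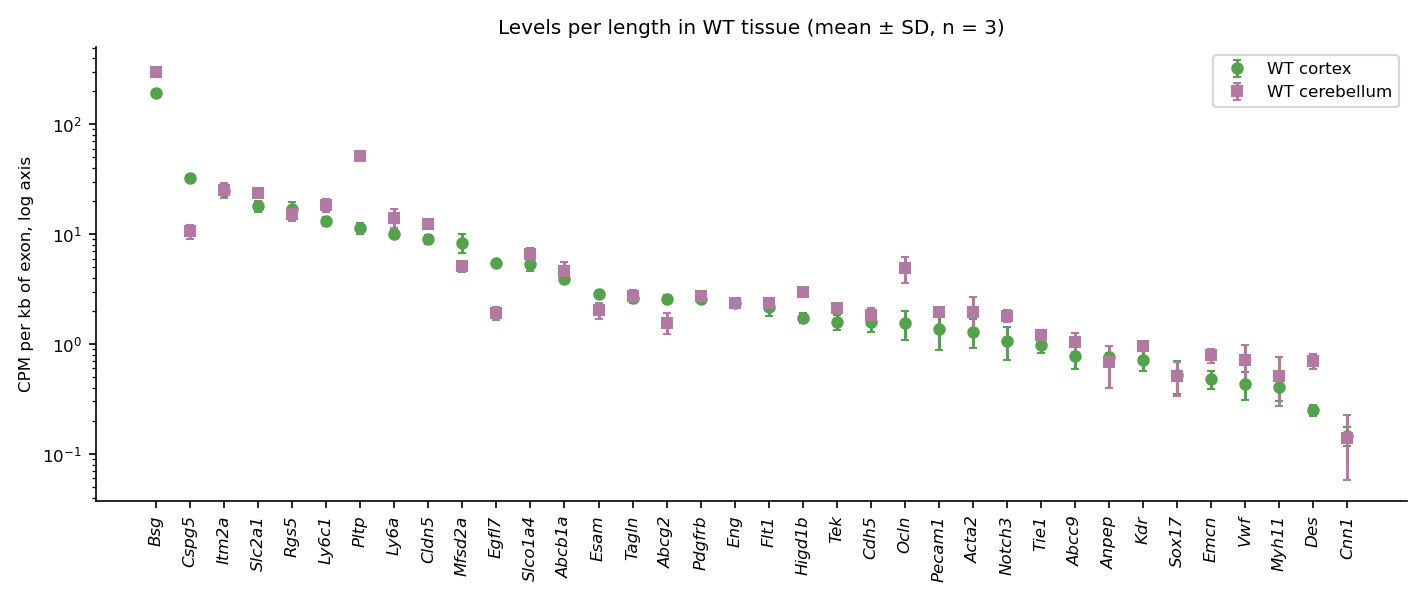
Level per length of each of the 36 members in WT cortex (circles) and WT cerebellum (squares), as CPM per kilobase of exon on a log axis, with mean and SD of 3 libraries, ordered by the cortex mean. *Bsg* lies above all others at 299.9 in cerebellum and *Cnn1* lies lowest in both tissues, while *Pltp*, *Ocln* and *Des* stand higher in cerebellum and *Egfl7* and *Cspg5* higher in cortex.

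The libraries held 16672589 to 19887427 counted fragments. *Snx14*, the deleted gene, checks the labels: it was at 63.6 to 67.0 CPM in WT and 10.4 to 11.2 CPM in *Snx14*-KO cerebellum, and at 53.6 to 59.8 and 7.69 to 8.50 CPM in cortex. Its log2 fold change was -2.57 (SE 0.08, edgeR adjusted p = 1.69e-06) in cerebellum and -2.80 (SE 0.10, edgeR adjusted p = 3.19e-08) in cortex. Some libraries stood apart in genes of other cells. The summed CPM of 10 choroid plexus genes was 363, 4365 and 11110 in the WT cerebellum libraries and 1647 to 4665 in *Snx14*-KO cerebellum. The sum of 19 meningeal and perivascular fibroblast genes was 575 CPM in *Snx14*-KO cortex replicate 2 and 209 to 278 CPM in the other 5 cortex libraries. In cerebellum the same sum was 255 to 463 CPM in WT and 621 to 641 CPM in *Snx14*-KO.

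The comparison of *Snx14*-KO with WT asked whether vessel genes differed with loss of *Snx14*. No member passed the test in either tissue, while most had somewhat higher values in *Snx14*-KO. In cerebellum, 27 of the 35 members tested had a log2 fold change above 0, with a median of 0.17, against 49.9% of all genes and a median of -0.00062. In cortex, 30 of 35 lay above 0, with a median of 0.21, against 50.0% of all genes. The medians of the classes lay close to each other, and their difference was not tested. The endothelial median was 0.18 in cerebellum (20 of 24 above 0) and 0.23 in cortex (21 of 24), and the mural median was 0.16 (7 of 11) and 0.17 (9 of 11). Without *Cspg5* the mural medians were 0.17 and 0.19. Genes share libraries and vessel content, so these counts are descriptions.

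A call required a log2 fold change beyond 0.5 in size together with an adjusted p below 0.05 in the edgeR quasi-likelihood test, and 0 of 35 were called in either tissue, against a background of 0.00549% of 18201 genes in cerebellum and 0.00548% of 18255 in cortex, *Snx14* alone in each. At an unadjusted edgeR p under 0.05, 8 members were higher in *Snx14*-KO cerebellum and 0 lower, against 5.78% and 2.37% of all genes. In cortex 8 were higher and 0 lower, against 2.24% and 2.26%. DESeq2 called 0.841% of genes higher and 0.0604% lower in cerebellum, with 1 member among them, *Anpep*, and 0.0164% higher and 0.0329% lower in cortex, with 0 members. WT and *Snx14*-KO libraries did not overlap for 6 members that were higher and 1 that was lower in cerebellum, where 6.22% and 6.32% of all genes did so, and for 5 higher and 0 lower in cortex, where 4.57% and 4.67% did. The counts depended on single libraries. Without *Snx14*-KO cerebellum replicate 2 the endothelial median fell to 0.086 and 22 members lay above 0, and without WT cortex replicate 3 only 1 member was higher at the unadjusted threshold in cortex (3 without *Snx14*-KO replicate 1, and 5 without WT or *Snx14*-KO replicate 2).

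**Figure D2:**
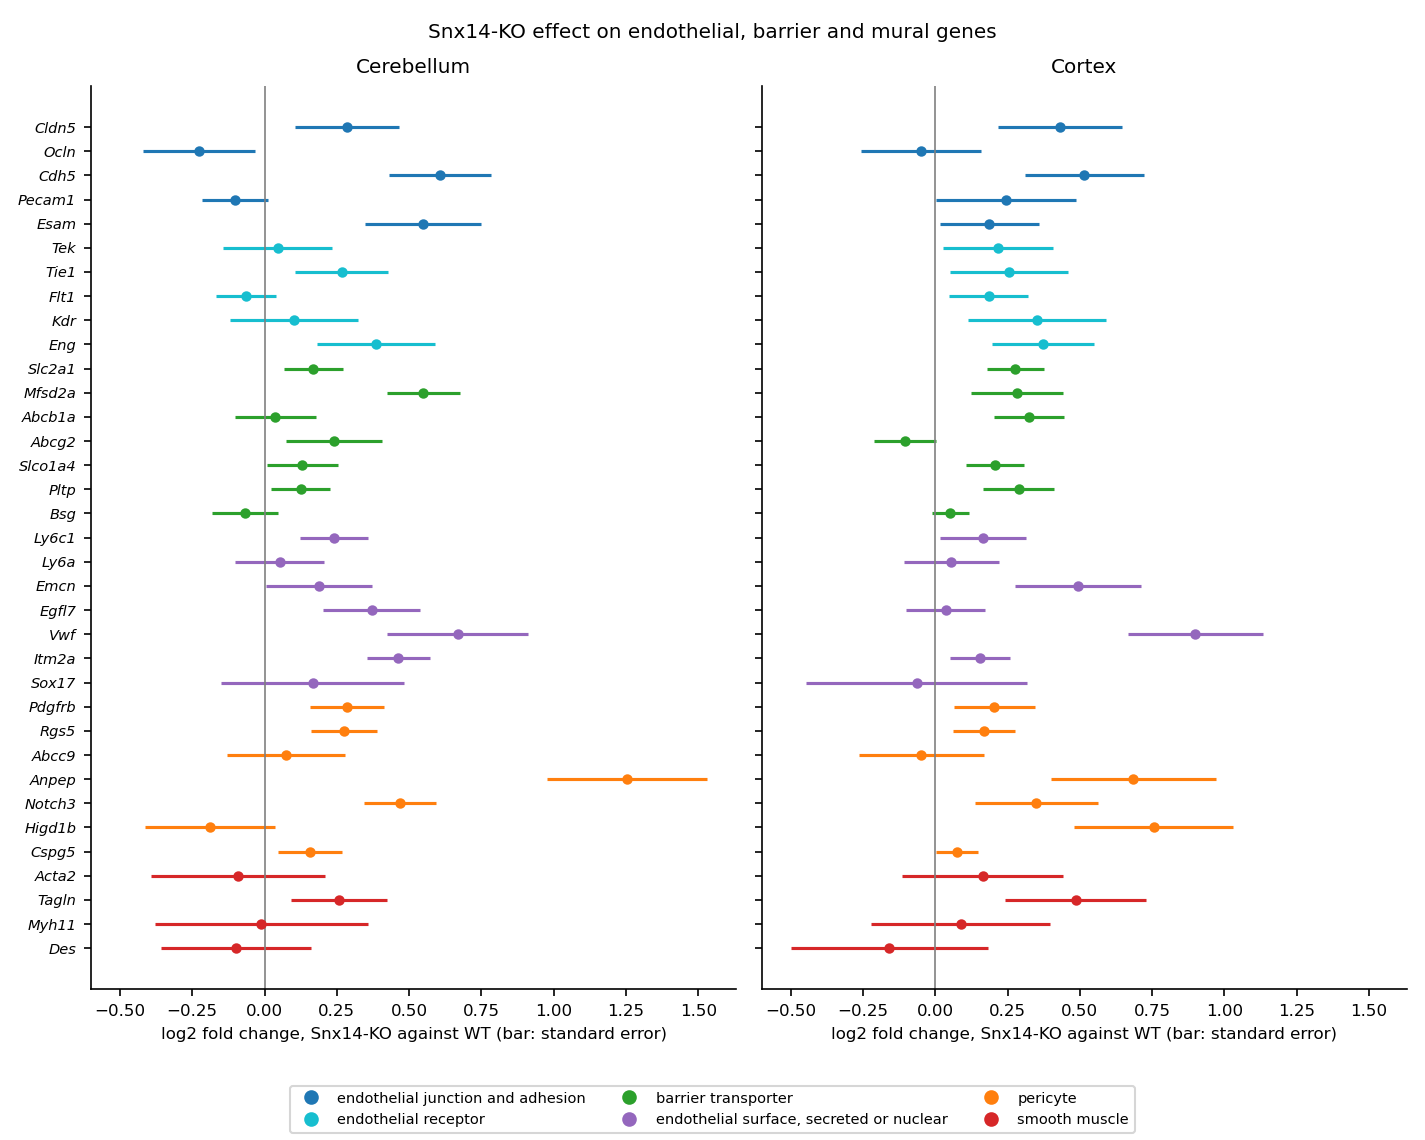
Log2 fold change of *Snx14*-KO against WT for the 35 tested members in cerebellum (left) and cortex (right), on a shared axis, with bars for the standard error of the edgeR fit and colors for the role of each gene. Most points lie right of 0, with *Anpep* at 1.25 in cerebellum and *Vwf* at 0.90 in cortex farthest out, and none passed the adjusted threshold.

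Junction genes carry the seal between endothelial cells. *Cldn5* was at 16.4, 17.9 and 18.5 CPM in WT cerebellum and at 22.8, 25.9 and 15.1 CPM in *Snx14*-KO cerebellum. In cortex it was at 11.6, 12.7 and 13.9 CPM in WT and at 19.7, 21.2 and 10.5 CPM in *Snx14*-KO. In both tissues *Snx14*-KO mice 1 and 2 lay above every WT library and mouse 3 below, so the groups overlapped. The log2 fold changes were 0.29 (SE 0.18, edgeR adjusted p = 0.786) and 0.43 (SE 0.21, edgeR adjusted p = 0.996). Leaving out *Snx14*-KO replicate 2 of the tissue gave 0.11 and 0.24, and leaving out *Snx14*-KO replicate 3 gave 0.47 and 0.69. *Cdh5*, the cadherin of adherens junctions, was at 6.84, 9.06 and 7.46 CPM in WT and at 9.90, 14.2 and 11.1 CPM in *Snx14*-KO cerebellum. The cerebellar groups did not overlap, with a log2 fold change of 0.61 (SE 0.18, edgeR adjusted p = 0.368). In cortex its values were 7.92, 5.48 and 6.43 CPM in WT and 9.75, 11.6 and 6.92 CPM in *Snx14*-KO, which overlapped, with a log2 fold change of 0.51 (SE 0.21, edgeR adjusted p = 0.996) that ran down to 0.33 with *Snx14*-KO replicate 2 left out. *Esam*, an adhesion molecule of endothelial tight junctions, was at 6.50, 4.73 and 6.23 CPM in WT and at 6.88, 10.5 and 7.91 CPM in *Snx14*-KO cerebellum. Its groups did not overlap there (log2 fold change 0.55, SE 0.20, edgeR adjusted p = 0.483, or 0.35 without *Snx14*-KO replicate 2), and in cortex the log2 fold change was 0.19.

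*Pecam1*, the adhesion molecule CD31, was the member that was lower without overlap in cerebellum. It was at 12.1, 12.9 and 11.6 CPM in WT and at 11.3, 11.1 and 11.3 CPM in *Snx14*-KO, a log2 fold change of -0.10 (SE 0.11, edgeR adjusted p = 0.918). In cortex WT replicate 2 stood apart at 4.99 CPM from 10.04 and 10.53 CPM, and *Snx14*-KO libraries were at 11.2, 10.9 and 8.17 CPM. The log2 fold change of 0.25 in cortex became -0.03 without that library. *Ocln*, the tight junction protein occludin, gave -0.23 and -0.05.

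The 5 receptor genes take up growth signals for endothelial cells and showed small differences. *Tek* and *Tie1*, of the angiopoietin pathway, *Flt1* and *Kdr*, of the VEGF pathway, and *Eng*, a co-receptor of TGF-β and BMP ligands, ranged in log2 fold change from -0.06 to 0.38 in cerebellum and from 0.18 to 0.37 in cortex. The number of receptor genes higher at an unadjusted p under 0.05 was 0 in both tissues. *Eng* had the largest log2 fold change among them in both tissues (0.38 and 0.37). It was at 8.89, 9.58 and 10.3 CPM in WT and 11.6, 16.5 and 9.15 CPM in *Snx14*-KO cerebellum, where the groups overlapped through mouse 3.

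Among the 7 barrier transport genes, *Mfsd2a* and *Slc2a1* gave the smallest p in their tissue. *Mfsd2a* encodes the carrier of lysophosphatidylcholine lipids that also keeps vesicle traffic low. It was at 12.7, 11.6 and 10.1 CPM in WT and at 16.7, 15.3 and 17.9 CPM in *Snx14*-KO cerebellum. Each *Snx14*-KO library lay above each WT library, with a log2 fold change of 0.55 (SE 0.13, edgeR adjusted p = 0.232). In cortex its groups overlapped, at 20.4, 21.9 and 14.5 CPM against 20.01, 21.8 and 27.4 CPM (log2 fold change 0.28, SE 0.16). *Slc2a1* was at 69.5, 63.8 and 55.2 CPM in WT and at 70.4, 85.7 and 72.3 CPM in *Snx14*-KO cortex, without overlap (log2 fold change 0.28, SE 0.10, edgeR adjusted p = 0.996). In cerebellum it was at 84.0, 88.2 and 77.4 CPM against 81.0, 105 and 91.3 CPM, which overlapped (log2 fold change 0.17). The efflux pump *Abcb1a*, also known as P-glycoprotein, was at 22.4, 21.4 and 20.2 CPM in WT and 26.9, 30.9 and 22.1 CPM in *Snx14*-KO cortex, with a log2 fold change of 0.32 (edgeR adjusted p = 0.996), and differed by 0.04 in cerebellum. *Pltp*, which encodes phospholipid transfer protein, had cortex values of 32.8, 26.5 and 27.8 CPM in WT and 34.5, 41.3 and 30.5 CPM in *Snx14*-KO (log2 fold change 0.29, edgeR adjusted p = 0.996). With *Snx14*-KO cortex replicate 2 left out, the cortical values were 0.18 for *Slc2a1*, 0.20 for *Abcb1a* and 0.16 for *Pltp*. The other 3, the pump *Abcg2*, the organic anion carrier *Slco1a4* and *Bsg*, lay between -0.11 and 0.24 in both tissues.

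The 7 endothelial genes of surface, secreted or nuclear proteins were above 0 in 7 of 7 cases in cerebellum and 6 of 7 in cortex. *Vwf*, the clotting factor stored by endothelial cells and abundant in larger vessels and veins, had the largest cortical value. It was at 8.93, 7.19 and 4.90 CPM in WT and at 11.5, 17.3 and 10.4 CPM in *Snx14*-KO cortex. The groups did not overlap, with a log2 fold change of 0.90 (SE 0.23, edgeR adjusted p = 0.883). The cortical value was 0.64 without *Snx14*-KO replicate 2 and 1.11 without WT replicate 1. Without the low-count filter *Vwf* was called in cortex (0.90, edgeR adjusted p = 2.56e-05). In cerebellum it was at 8.89, 16.6 and 9.13 CPM in WT and at 18.0, 21.5 and 14.9 CPM in *Snx14*-KO (log2 fold change 0.67, SE 0.24, edgeR adjusted p = 0.483), with WT replicate 2 inside the *Snx14*-KO range. The cerebellar value was 1.02 without WT replicate 2 and 0.50 without WT replicate 1. *Itm2a* was at 41.1, 52.3 and 39.6 CPM in WT and at 59.6, 64.6 and 57.3 CPM in *Snx14*-KO cerebellum. Its groups did not overlap (log2 fold change 0.46, SE 0.11, edgeR adjusted p = 0.242). DESeq2 gave *Itm2a* an adjusted p of 0.0238 at a size under the 0.5 limit. In cortex, *Emcn*, a sialomucin of capillary and venous endothelium, was at 2.28 to 3.13 CPM in WT and 3.401 to 3.81 CPM in *Snx14*-KO (log2 fold change 0.49, edgeR adjusted p = 0.996). *Ly6c1*, *Ly6a*, *Egfl7* and the transcription factor gene *Sox17* had log2 fold changes of 0.05 to 0.37 in cerebellum and -0.06 to 0.16 in cortex, with *Sox17* at no more than 3.75 CPM.

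Of the pericyte genes, *Anpep* had the largest difference of all members. It encodes aminopeptidase N (CD13) and is also made by fibroblasts of the meninges and around vessels. It was at 1.78, 4.10 and 2.58 CPM in WT and at 7.17, 6.23 and 6.55 CPM in *Snx14*-KO cerebellum. The groups did not overlap, with a 2.38-fold higher level (log2 fold change 1.25, SE 0.28, edgeR adjusted p = 0.211), and DESeq2 called it (adjusted p = 0.00899). In cortex it was at 2.92, 3.38 and 3.19 CPM in WT and at 4.001, 7.74 and 3.46 CPM in *Snx14*-KO (log2 fold change 0.69, SE 0.29, edgeR adjusted p = 0.996). The high value was *Snx14*-KO replicate 2, the library with the high fibroblast sum, and leaving that library out gave a log2 fold change of 0.23. The fibroblast list moved with it: 19 of 19 of its genes lay above 0 in both tissues, with medians of 1.15 in cerebellum and 0.69 in cortex, and the part of these cells in the *Anpep* result was not tested.

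*Notch3*, the Notch receptor of mural cells, was at 16.8, 13.5 and 13.7 CPM in WT and at 20.1, 18.4 and 21.7 CPM in *Snx14*-KO cerebellum. Its groups did not overlap (log2 fold change 0.47, SE 0.12, edgeR adjusted p = 0.321), whereas in cortex they did, at 11.96, 7.30 and 6.66 CPM against 10.4, 13.002 and 9.66 CPM (log2 fold change 0.35). *Pdgfrb*, the receptor through which pericytes are recruited, was at 13.6, 16.8 and 14.7 CPM in WT and at 20.2, 16.7 and 17.5 CPM in *Snx14*-KO cerebellum (log2 fold change 0.29, SE 0.13, edgeR adjusted p = 0.617). In cortex it was at 13.97, 13.2 and 14.97 CPM against 18.4, 16.95 and 13.2 CPM (log2 fold change 0.20, SE 0.14). Both pairs of groups overlapped. *Rgs5* was at 60.2, 77.4 and 70.0 CPM in WT and at 78.4, 94.7 and 75.9 CPM in *Snx14*-KO cerebellum (log2 fold change 0.28, SE 0.11, edgeR adjusted p = 0.568), and at 88.6, 63.0 and 78.3 CPM against 87.0, 80.2 and 91.6 CPM in cortex (log2 fold change 0.17, SE 0.11), with overlap in both. These small values moved with single libraries. In cortex, *Notch3* ran from 0.19 without WT replicate 3 to 0.66 without WT replicate 1, *Pdgfrb* from 0.10 without *Snx14*-KO replicate 1 to 0.33 without *Snx14*-KO replicate 3, and *Rgs5* from 0.05 without WT replicate 2 to 0.29 without WT replicate 1. In cerebellum *Rgs5* was at 0.16 without *Snx14*-KO replicate 2. *Abcc9*, a subunit of the potassium channel of pericytes, gave 0.07 and -0.05. *Higd1b*, a mitochondrial protein gene enriched in pericytes, was at 2.67, 2.25 and 2.63 CPM in WT and 2.29, 2.10 and 2.17 CPM in *Snx14*-KO cerebellum, and at 1.65, 1.40 and 1.37 CPM against 2.94, 1.87 and 2.68 CPM in cortex. It was lower in cerebellum (log2 fold change -0.19) and higher without overlap in cortex (0.75, SE 0.27, edgeR adjusted p = 0.996), on 24 to 49 counts per library.

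Smooth muscle genes contract or shape the arteriolar wall and were measured at low levels. Of the 4 tested, 1 lay above 0, with a median of -0.05, and in cortex 3 of 4 did, with a median of 0.13. *Acta2*, smooth muscle actin, was at 2.39, 5.08 and 5.32 CPM in WT and at 4.73, 3.64 and 3.52 CPM in *Snx14*-KO cerebellum, where WT replicate 1 stood apart. *Myh11*, the smooth muscle myosin, was low in the same library, at 1.83 CPM against 5.31 and 4.62 CPM. The log2 fold change of *Acta2* was -0.09 (SE 0.30, edgeR adjusted p = 0.979) in cerebellum and 0.16 (SE 0.28) in cortex, where it was at 3.67, 1.99 and 2.90 CPM in WT and 2.88, 4.11 and 2.56 CPM in *Snx14*-KO. *Tagln*, the actin-binding transgelin, gave 0.26 in cerebellum and 0.49 in cortex, with the highest cortical value, 10.4 CPM, again in *Snx14*-KO replicate 2, whose omission lowered the cortical value to 0.13. Of its exon bases, 67.9% are shared with other annotated genes, mainly on the opposite strand, and counting ignored strand. *Myh11* and *Des*, the muscle filament desmin, lay between -0.16 and 0.09. *Cnn1* (calponin) did not pass the filter on low counts, with 0.16 to 0.64 CPM.

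**Figure D3:**
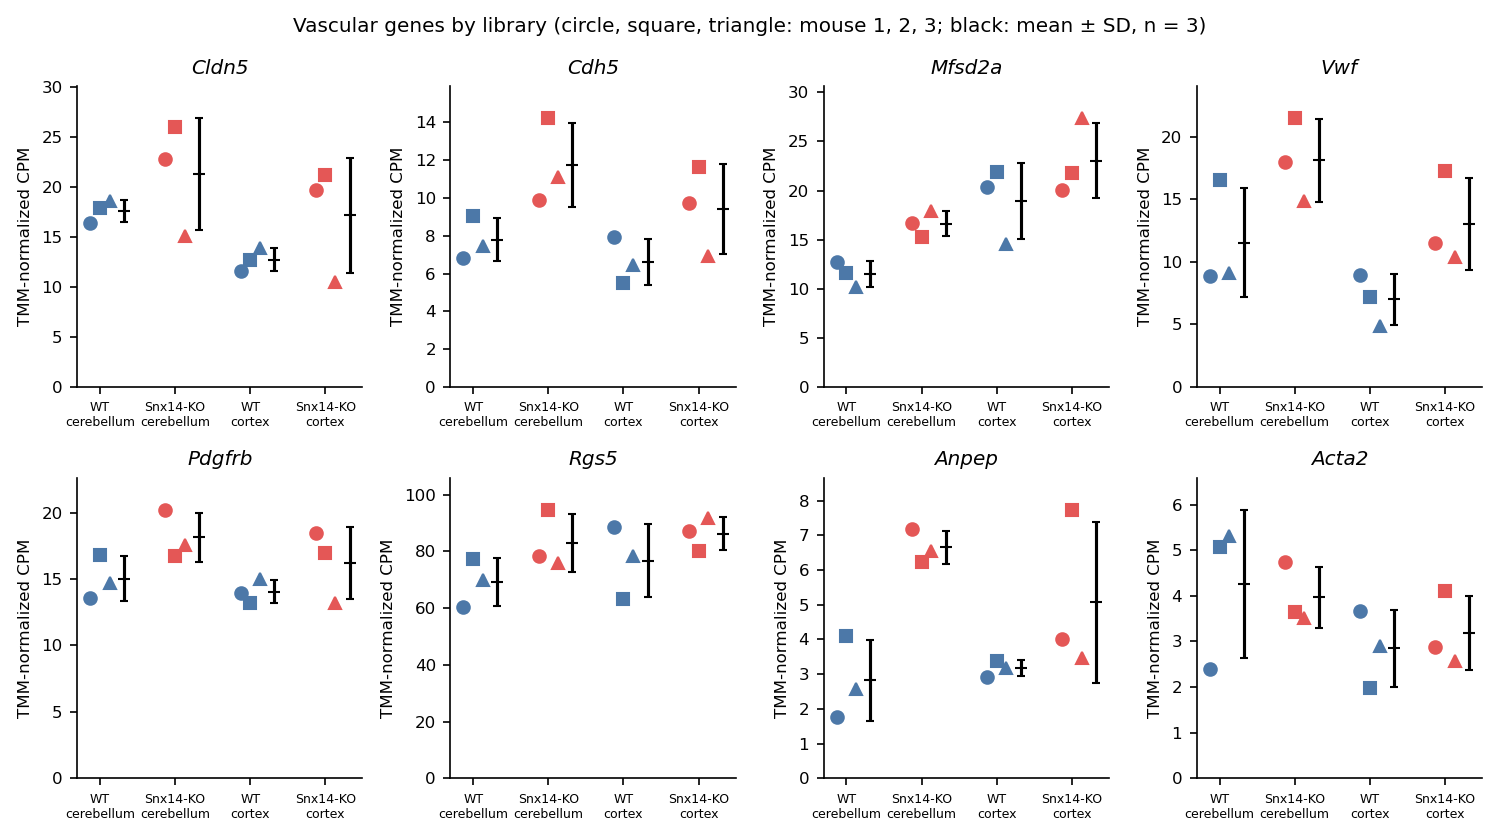
TMM-normalized CPM of 8 members in each library, with symbols for mice 1 to 3, blue for WT, red for *Snx14*-KO, and black bars for the mean and SD of 3 libraries. In cerebellum the genotypes separate for *Cdh5*, *Mfsd2a* and *Anpep* (1.78 to 4.10 against 6.23 to 7.17 CPM) and overlap for *Cldn5*, *Pdgfrb*, *Rgs5* and *Acta2*, and in cortex they separate for *Vwf* and *Anpep*.

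The difference between the tissues in the effect of genotype was tested with all 12 libraries. At the threshold above, 0 of 35 members and 0% of 19380 genes were called by edgeR. At an unadjusted p under 0.05, members gave 0 higher and 1 lower, against 3.97% and 1.71% of genes, and DESeq2 called 0 members, against 0.175% of genes higher and 0.00516% lower. The member was *Higd1b*, whose effect differed by -0.96 on the log2 scale, cerebellum minus cortex (SE 0.33, edgeR adjusted p = 0.628). For *Vwf* the difference was -0.25 (SE 0.38), for *Anpep* 0.56 (SE 0.44), for *Itm2a* 0.29 (SE 0.16) and for *Cdh5* 0.08 (SE 0.29). None passed the adjusted threshold. The *Anpep* difference ran from 0.31 without WT cerebellum replicate 1 to 1.00 without *Snx14*-KO cortex replicate 2.

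Genes of the pathways around the vessel wall were described from lists of their own, and 0 of them were called by edgeR with genotype in either tissue. In the Wnt list, 11 of 16 genes lay above 0 in cerebellum (median 0.14) and 15 of 16 in cortex (median 0.08). Its smallest p in cerebellum was that of *Adgra2*, a co-receptor for Wnt7 ligands (log2 fold change 0.54, edgeR adjusted p = 0.260), and in cortex that of *Apcdd1*, a Wnt target and inhibitor (0.65, edgeR adjusted p = 0.971). Of 12 PDGF, TGF-β and sphingosine-1-phosphate genes, 10 lay above 0 in cerebellum (median 0.19), with *Tgfb1* at 0.59, and 8 in cortex (median 0.06). *Smad6*, an inhibitory Smad gene, was at 0.95 there, on 20, 24 and 23 counts in WT and 24, 69 and 29 in *Snx14*-KO, where replicate 2 stood apart. Of 20 VEGF, angiopoietin and Notch genes, 16 lay above 0 in cerebellum (median 0.15), where the VEGF and semaphorin co-receptor *Nrp1* was at 0.73, while the netrin receptor *Unc5b* was at -0.28 there and -0.38 in cortex.

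Among 24 further junction and transport genes the medians were 0.10 and 0.06. *Slc22a8*, an organic anion transporter of the barrier and of the choroid plexus, stood out in cerebellum. It was at 9.34, 9.81 and 6.55 CPM in WT and at 20.5, 18.2 and 18.7 CPM in *Snx14*-KO cerebellum, without overlap (log2 fold change 1.18, SE 0.16, edgeR adjusted p = 0.0634, called by DESeq2), and its log2 fold change in cortex was 0.47. Of the choroid plexus genes, 0 of 10 lay above 0 in cerebellum, with a median of -0.72, and 0 of 7 in cortex, whereas the fibroblast list, which holds the transporters *Slc22a6* and *Slc6a13*, was above 0 for 19 of 19 in both tissues (medians 1.15 and 0.69). The part of these cells in the *Slc22a8* values was not tested. *Slc7a5*, the large neutral amino acid carrier, was at 0.29 in cortex.

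Of 14 other pericyte genes, 13 lay above 0 in cerebellum (median 0.23), and DESeq2 called 3 higher, against 0.841% of all genes. *Vtn*, which encodes vitronectin, was at 51.0, 65.3 and 51.4 CPM in WT and 91.4, 81.4 and 88.5 CPM in *Snx14*-KO cerebellum (log2 fold change 0.66, SE 0.10, edgeR adjusted p = 0.133). *Slc6a20a*, an amino acid transporter gene also of meningeal cells, had the largest value of the list, at 10.7, 24.5 and 19.4 CPM in WT and 47.1, 26.4 and 45.1 CPM in *Snx14*-KO cerebellum (log2 fold change 1.13, SE 0.29, edgeR adjusted p = 0.312). *Foxc1*, a transcription factor gene also active in meningeal fibroblasts, was at 1.01 (edgeR adjusted p = 0.145) and *Atp13a5*, a pericyte ATPase, at 0.87 (edgeR adjusted p = 0.195). These groups did not overlap. In cortex 10 of 13 lay above 0 (median 0.27), with *Slc6a20a* at 0.59 and *Foxc1* at 0.82. *Foxc1* was on 68, 71 and 57 counts in WT and 91, 151 and 81 in *Snx14*-KO cortex, highest in replicate 2. The lowest cortical value of the list was -0.90, for *Ggt1*. Its counts were 19, 38 and 18 in WT and 10, 12 and 15 in *Snx14*-KO. Of 16 other smooth muscle genes, 7 lay above 0 in cerebellum and 5 in cortex, with medians of -0.06 in both. Of 23 other endothelial genes, 15 and 18 lay above 0, with medians of 0.13 and 0.16, and of 12 basement membrane genes 9 and 12 did, with medians of 0.21 and 0.35. The laminin *Lamb2* was at 0.44 in cerebellum (edgeR adjusted p = 0.145) and *Lama4* at 0.79, while in cortex *Nid2*, a nidogen that links laminin to collagen, was at 0.81, on 50, 47 and 53 counts in WT and 56, 132 and 59 in *Snx14*-KO. Replicate 2 again stood apart, and by library the basement membrane score was -0.0012, -0.28 and -0.13 in WT and -0.0084, 0.56 and -0.14 in *Snx14*-KO cortex, so that *Snx14*-KO replicates 1 and 3 lay within the WT range. Replicate 2 is the cortex library with the highest fibroblast score (1.00), whose part in these values was not tested. Arterial genes had medians of 0.17 in both tissues over 8 genes, and the venous or activated list 0.33 over 5 and 0.03 over 4. Its *Lcn2* was at 1.83 on 1 to 16 counts per library in cerebellum.

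The other cell lists moved alongside these values, and their part in the results was not tested. In cerebellum, microglia and macrophage genes were above 0 for 10 of 10 (median 0.82), astrocyte genes for 7 of 7 (median 0.26), red blood cell genes for 0 of 5 (median -0.59) and neuron genes for 0 of 4 (median -0.13). In cortex the same lists gave 7 of 10 (0.07), 6 of 7 (0.08), 0 of 5 (-0.46) and 3 of 4 (0.08). Summed red cell genes ranged from 168 to 415 CPM in WT and from 119 to 309 CPM in *Snx14*-KO cerebellum. By library, the endothelial score (mean log2(CPM + 1) of the list, taken relative to the average over its tissue) was -0.19, 0.01 and -0.10 in WT and 0.05, 0.27 and -0.05 in *Snx14*-KO cerebellum, and 0.04, -0.21 and -0.15 against 0.18, 0.21 and -0.07 in cortex. The groups overlapped in both tissues. The mural score was -0.29, 0.04 and -0.02 against 0.17, 0.09 and 0.01 in cerebellum, and 0.06, -0.20 and -0.12 against 0.13, 0.10 and 0.02 in cortex, also with overlap. The score of the 7 pericyte members did not overlap and was -0.22, -0.06 and -0.16 in WT and 0.20, 0.14 and 0.09 in *Snx14*-KO cerebellum, and -0.0005, -0.24 and -0.12 against 0.15, 0.14 and 0.08 in cortex. These 7 include *Cspg5*, a gene of neural cells, and *Anpep*, also made by fibroblasts. The pericyte score was not computed without them. The 14 other pericyte genes did not overlap either, at -0.22 to -0.07 against 0.13 to 0.20 in cerebellum and -0.20 to 0.00045 against 0.05 to 0.12 in cortex. Such separation was not particular to pericyte genes. In cerebellum the Wnt, VEGF, venous, fenestrated endothelial, fibroblast, microglia, astrocyte and neuron scores also separated, and in cortex those of the barrier transporter, neuron and choroid plexus lists did, the neuron score downward in cerebellum and the choroid plexus score downward in cortex. *Snx14*-KO replicate 3 had the lowest endothelial and mural score of its group in both tissues.

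**Figure D4:**
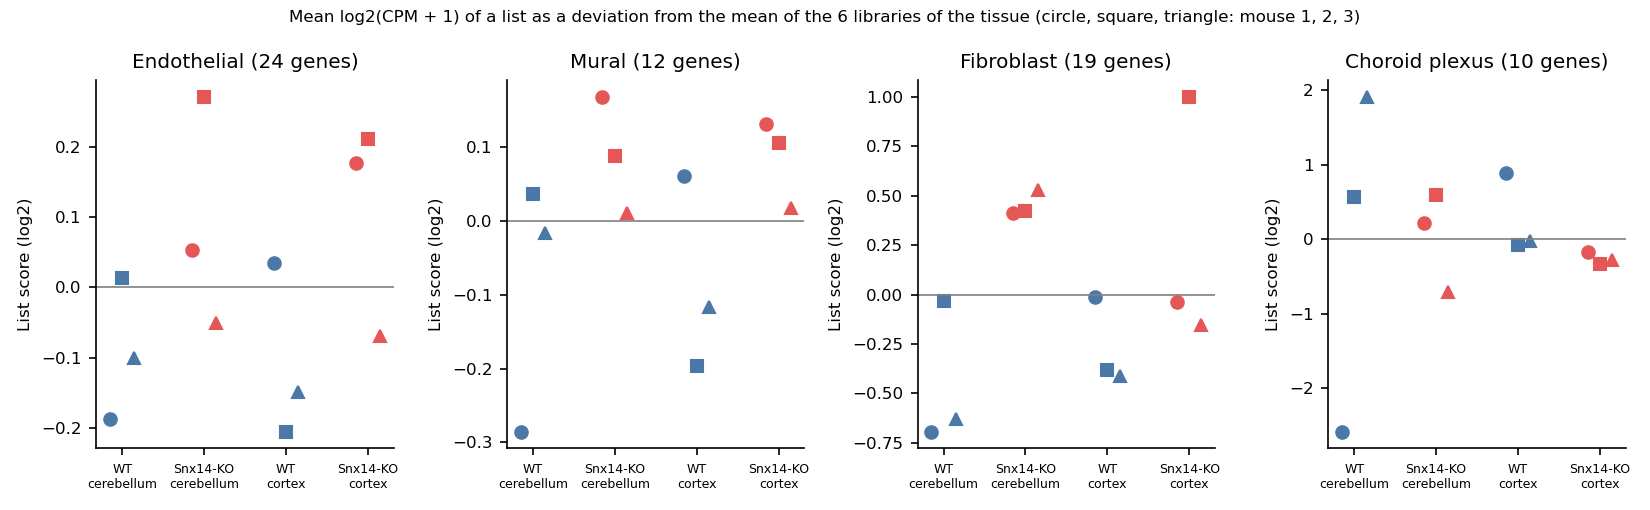
Scores of 4 gene lists by library (mean log2(CPM + 1), relative to the average over the 6 libraries from that tissue), with blue for WT, red for *Snx14*-KO, and symbols for mice 1 to 3. Endothelial and mural scores overlap between genotypes and stay within 0.3 of the mean, fibroblast scores separate in cerebellum and reach 1.00 in *Snx14*-KO cortex replicate 2, and choroid plexus scores spread from -2.59 to 1.92 among WT cerebella.

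The comparison of cerebellum with cortex asked how vessel genes differed between the regions. In WT mice, 13 of 35 members passed the same threshold between the tissues, 9 higher in cerebellum (19% of all genes) and 4 lower (21.4%). The background was 40.4% of 18543 genes, so this count is near that of any genes and is no result about vessel genes as a group. Groups did not overlap for 14 members higher in cerebellum and 5 lower, against 31.6% and 32.7% of genes. In *Snx14*-KO mice, measured in separate libraries, 8 members were called, 6 higher (18.2% of all genes) and 2 lower (19.6%), against 37.9% of 18542 genes in either direction, and 9 higher and 4 lower did not overlap, against 29.8% and 30.8%. All 8 were also called in WT in the same direction, which is 61.5% of the 13 WT calls and 100% of the 8 *Snx14*-KO calls. For all genes the shares were 80.7% and 86.2%. At an unadjusted edgeR p under 0.05, 15 members were higher and 5 lower in WT cerebellum, against 30.9% and 31% of genes, and 12 and 4 in *Snx14*-KO, against 28.5% and 28.8%. DESeq2 called 8 higher and 4 lower in WT, against 17.9% and 21%, and 5 and 2 in *Snx14*-KO, against 17% and 19.1%. The median log2 fold change was 0.36 for endothelial and 0.33 for mural members in WT and 0.27 and 0.23 in *Snx14*-KO, against 0.02 for all genes in both. Without *Cspg5* the mural medians were 0.38 in WT and 0.27 in *Snx14*-KO. The WT mural median ran from 0.06 without WT cerebellum replicate 2 to 0.58 without WT cerebellum replicate 1.

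*Pltp* rose most in cerebellum. It was at 124, 125 and 149 CPM in WT cerebellum and at 32.8, 26.5 and 27.8 CPM in WT cortex, 4.57-fold higher (log2 fold change 2.19, SE 0.10, edgeR adjusted p = 2.92e-08). In *Snx14*-KO it was at 131, 158 and 140 CPM against 34.5, 41.3 and 30.5 CPM (log2 fold change 2.02, SE 0.12, edgeR adjusted p = 4.36e-07). Of its exon bases, 19.3% are shared with *Ctsa* on the opposite strand. *Ocln* rose 3.20-fold in WT, from 8.77, 5.15 and 5.64 CPM in cortex to 15.2, 21.0 and 26.3 CPM in cerebellum (log2 fold change 1.68, SE 0.24, edgeR adjusted p = 0.000148), and by a log2 fold change of 1.49 (SE 0.14) in *Snx14*-KO, from 6.38, 6.75 and 5.78 CPM to 17.02, 20.1 and 15.9 CPM. *Ocln* is also a junction gene of choroid plexus epithelium, and WT cerebellum replicate 3, with the highest choroid plexus sum, had the highest *Ocln*. All 10 choroid plexus genes were called higher in cerebellum in both genotypes, and their part in the *Ocln* difference was not tested.

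*Bsg* rose 1.55-fold in WT cerebellum, at 499, 531 and 602 CPM against 341, 355 and 363 CPM (log2 fold change 0.63, SE 0.08, edgeR adjusted p = 5.39e-05). In *Snx14*-KO it was at 514, 588 and 441 CPM against 384, 362 and 351 CPM, and its log2 fold change of 0.50 (SE 0.10, edgeR adjusted p = 0.00253) was under the limit on size in most other settings, at 0.49 with mouse as a block, RLE factors, DESeq2, no filter or all 12 libraries in 1 fit, and at 0.40 without *Snx14*-KO cerebellum replicate 2. The remaining endothelial genes called higher in WT cerebellum were *Ly6c1* (0.50), *Emcn* (0.72) and *Vwf* (0.72), and *Ly6c1* was also called in *Snx14*-KO (0.57). The WT call of *Ly6c1* was lost with RLE factors, DESeq2 or no low-count filter, and all 3 WT calls were lost without WT cortex replicate 2 or 3. Without WT cerebellum replicate 2 *Ly6c1* and *Vwf* were lost, and without WT cerebellum replicate 3 *Emcn* was. The *Snx14*-KO call of *Ly6c1* was lost without *Snx14*-KO replicate 2 of either tissue. *Vwf* was called in *Snx14*-KO only without cerebellum replicate 3 or cortex replicate 2. *Ly6c1* has a close paralog, *Ly6c2*, and reads that map to both were not counted, so its level is uncertain. *Cldn5* was higher without overlap in WT cerebellum, with a log2 fold change of 0.47 (SE 0.12, edgeR adjusted p = 0.00514), under the limit on size, and was called at 0.52 without WT cerebellum replicate 1 and at 0.53 without WT cortex replicate 3. In *Snx14*-KO it was at 0.32, and ran from 0.07 without cortex replicate 3 to 0.52 without cerebellum replicate 3. *Cdh5* (0.24), *Flt1* (0.13) and *Eng* (0.0032) were not called in WT. *Pecam1* (0.52) was not called by edgeR (adjusted p = 0.0831) and was by DESeq2 (adjusted p = 0.0481) and by edgeR without the low-count filter (adjusted p = 0.0125). Its WT value ran from 0.24 without WT cortex replicate 2 to 0.69 without WT cortex replicate 3.

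*Egfl7* fell in cerebellum: it was at 6.17, 7.91 and 6.39 CPM in WT cerebellum and at 20.03, 18.2 and 20.6 CPM in WT cortex (log2 fold change -1.52, SE 0.13, edgeR adjusted p = 3.99e-06). In *Snx14*-KO it was at 9.94, 8.99 and 7.26 CPM against 24.5, 16.6 and 19.3 CPM (log2 fold change -1.19, SE 0.18, edgeR adjusted p = 0.000282). In both genotypes each cerebellum library lay below each cortex library. Of its exon bases, 11.2% are shared with other annotated genes. *Abcg2*, at 12.3, 15.8 and 10.3 CPM against 23.1, 20.1 and 19.7 CPM in WT, fell by 0.71 on the log2 scale (SE 0.15, edgeR adjusted p = 0.00233). *Mfsd2a* fell in WT with a log2 fold change of -0.72 (SE 0.16, edgeR adjusted p = 0.00333). In *Snx14*-KO these were -0.38 and -0.46, under the limit on size, and the differences between the genotypes were 0.33 (SE 0.20) and 0.25 (SE 0.22), not passing the test. *Mfsd2a* was called in *Snx14*-KO when cerebellum replicate 3, cortex replicate 1 or cortex replicate 2 was left out. *Itm2a* was not called in WT (0.03, SE 0.13) and was at 0.33 (SE 0.08, edgeR adjusted p = 0.00782) in *Snx14*-KO, under the limit on size.

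Of the mural genes, *Des* rose in cerebellum, at 2.17, 2.89 and 2.90 CPM against 1.06, 0.913 and 0.854 CPM in WT (log2 fold change 1.49, SE 0.27, edgeR adjusted p = 0.000764) and at 2.39, 3.03 and 1.95 CPM against 0.875, 0.713 and 0.954 CPM in *Snx14*-KO (1.54, SE 0.31, edgeR adjusted p = 0.00193). *Notch3* rose as well, with log2 fold changes of 0.76 (SE 0.21, edgeR adjusted p = 0.00983) in WT and 0.87 (SE 0.14, edgeR adjusted p = 0.000499) in *Snx14*-KO. *Higd1b* rose in WT (0.78, SE 0.24, edgeR adjusted p = 0.0175), where DESeq2 did not call it and the call was lost without WT cerebellum replicate 1 or WT cortex replicate 2 or 3, and was at -0.18 (SE 0.26) in *Snx14*-KO. The core pericyte genes *Pdgfrb* (0.10 in WT and 0.17 in *Snx14*-KO) and *Rgs5* (-0.14 and -0.05) did not pass the test, nor did *Acta2* (0.58, SE 0.33, and 0.32, SE 0.25) or *Abcc9* (0.43 and 0.55, edgeR adjusted p = 0.103 and 0.0595). Both were called in some settings: *Acta2* in WT without WT cerebellum replicate 1 (0.87, edgeR adjusted p = 0.0175), and *Abcc9* in WT without that library and in *Snx14*-KO without the low-count filter (0.53, edgeR adjusted p = 0.0321) or without replicate 3 of cerebellum (0.71) or cortex (0.72). The WT value of *Acta2* was 0.37 without WT cortex replicate 2. *Cspg5* fell, at 125, 93.6 and 103 CPM in WT cerebellum against 317, 327 and 335 CPM in WT cortex (log2 fold change -1.60, SE 0.10, edgeR adjusted p = 2.15e-07), with -1.53 in *Snx14*-KO. Neuron genes fell alongside it, 4 of 4 called in both genotypes, whereas 4 of 7 astrocyte genes were called higher and 1 lower in both. The part of these cells in the *Cspg5* difference was not tested.

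**Figure D5:**
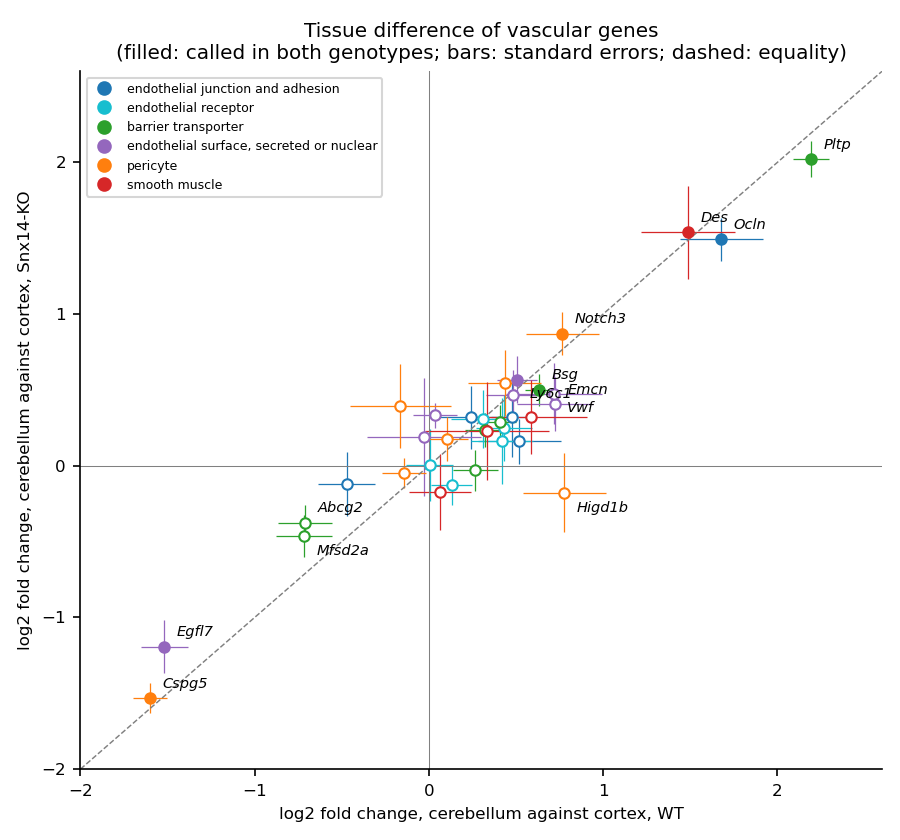
Log2 fold change of cerebellum against cortex for the 35 tested members in WT (x axis) and *Snx14*-KO (y axis), with standard errors from separate edgeR fits, filled where both fits called the gene and colored by role. *Pltp*, *Ocln*, *Des* and *Notch3* lie at the upper right, *Egfl7* and *Cspg5* at the lower left, and *Higd1b* (0.78 and -0.18) lies farthest from the dashed line of equal values.

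The pathway lists held genes that differed in both directions between the tissues, with list medians in WT of 0.29 for Wnt, 0.19 for VEGF, angiopoietin and Notch, 0.07 for PDGF, TGF-β and sphingosine-1-phosphate, and 0.19 for further junction and transport genes. Calls in WT were 6 higher and 1 lower of 16, 6 and 6 of 20, 3 and 3 of 12, and 5 and 2 of 24, against 19% higher and 21.4% lower of all genes. The genes named next are among the extremes of their lists. In WT, the Wnt ligand gene *Wnt7a* was higher in cerebellum (log2 fold change 2.05) and *Wnt7b* lower (-1.75), both called by edgeR. The growth factor gene *Pdgfd* was at 2.82 and the vessel guidance receptor gene *Plxnd1* at -2.65. Among barrier genes, *Marveld2*, a junction protein of contacts between 3 cells, was at 3.38 and the zinc carrier *Slc39a10* at -2.08. *Cd34*, a sialomucin of endothelium and of some neural cells, was at -2.87. Of basement membrane genes, *Col18a1* was at 5.13 and *Nid1* at 2.75, and 6 of 12 were called higher and 3 lower (median 0.86), against the same 19% and 21.4%. Of the other pericyte genes, 4 of 13 were called higher, with *Mcam* at 1.00 and *Vtn* at 0.81, and 1 lower. *Plvap*, a protein of fenestrated vessels such as those of the choroid plexus, was at 1.17.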

How the data were processed

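RNA of cerebellum and cortex was sequenced from 3 WT and 3 *Snx14*-KO mice. The authors deposited 1 table of raw counts per library, made by STAR alignment to GRCm38 and by featureCounts (Subread 2.0.1 in the submitters' processing notes) against GENCODE vM21, without strand, with fragments counted for each gene they overlapped and multimapping reads left out. Groups came from the labels. Libraries held 16672589 to 19887427 counts, of which 0.0506% to 0.0632% fell on features with a number for a name.

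Counts were tested with edgeR 4.0.16 (R 4.3.3): TMM scaling, the filterByExpr low-count filter and the quasi-likelihood test, with Benjamini-Hochberg adjustment over all genes tested and only the 6 libraries of the comparison in the fit (all 12 for the difference in effect). A call needed a log2 fold change beyond 0.5 in size together with an adjusted p below 0.05. CPM used TMM factors over all 12 libraries, and list scores a pseudocount of 1 CPM. Named in every comparison were *Cldn5*, *Pecam1*, *Cdh5*, *Pdgfrb*, *Rgs5* and *Acta2*, and the 5 endothelial and 4 mural members of smallest p, and other members were given by role. The members and lists were chosen with earlier results of these data known. Scripts were tested on simulated data. Alternatives were RLE factors, DESeq2 1.42.0, no filter, a replicate block, all 12 libraries in 1 fit and each library left out. Group separation with TMM factors of the compared libraries only was added after seeing the data.

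Mouse numbers in the titles recur across tissues and were taken to mark the same animal. Deviations of same-numbered cerebellum and cortex libraries correlated at 0.11, 0.16 and 0.073 in WT and 0.34, 0.018 and 0.10 in *Snx14*-KO. Sequences came from RefSeq tables of GRCm38.p6.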

Additional observations from a re-analysis of the deposited data

How the results depend on the processing

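Between tissues, 9 members in WT and 6 in *Snx14*-KO were called in every setting run, while the number called ran from 9 to 18 in WT (6 to 12 endothelial and 3 to 6 mural, lowest without WT cortex replicate 2 and highest without WT cerebellum replicate 1) and from 6 to 11 in *Snx14*-KO. Genes called over all genes ran from 7213 to 7691 in WT with a library left out. For *Snx14*-KO against WT in cerebellum, genes called numbered 1 with edgeR, 164 with DESeq2, 347 without the low-count filter, 45 with all 12 libraries in 1 fit, and 1 to 254 with a library left out (254 without *Snx14*-KO replicate 2, 10 without WT replicate 2 and 2 without WT replicate 3). Mural members called were 1 with DESeq2 and 1 without the filter, *Anpep* in both. In cortex, genes called numbered 1, 9 with DESeq2, 149 without the filter, 2 with all 12 libraries and 1 to 2 with a library left out. Without the filter 1 endothelial member, *Vwf*, was called and 14 members were higher at an unadjusted p under 0.05, against 8, and 1 to 11 with a library left out. For the difference in effect, genes called numbered 0, 35 with DESeq2, 386 without the filter and 0 to 253 with a library left out (253 without *Snx14*-KO cerebellum replicate 2), and members higher at the unadjusted threshold numbered 1 without the filter and 0 to 3 with a library left out. The causes were not tested.

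With a library left out, mural medians ran from 0.092 (without *Snx14*-KO replicate 1) to 0.27 (without WT replicate 2) for genotype in cerebellum, 0.077 to 0.32 for genotype in cortex, 0.056 to 0.58 for tissue in WT and 0.090 to 0.38 for tissue in *Snx14*-KO, where 3 to 7 endothelial members were called and 7 to 12 members were higher at the unadjusted threshold. The endothelial median for tissue in *Snx14*-KO ran from 0.12 (without cortex replicate 3) to 0.37 (without cerebellum replicate 3), against 0.27. Signs turned for values that were not called: *Acta2* ran from -0.38 to 0.10 in cerebellum and from -0.071 to 0.39 in cortex, *Pecam1* from -0.026 to 0.42 in cortex, and *Rgs5* from -0.15 to 0.016 between *Snx14*-KO tissues. For the difference in effect *Cdh5* ran from -0.10 to 0.26, *Pdgfrb* from -0.060 to 0.17, *Cldn5* from -0.41 to 0.037, *Rgs5* from -0.013 to 0.22 and *Tagln* from -0.44 to 0.11.

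With the replicate block, *Bsg* between *Snx14*-KO tissues had a log2 fold change of 0.49, under the limit on size as in most other settings, and no other call of a named member changed. Between genotypes, same-numbered libraries share only a number (correlations of 0.074, 0.022 and -0.031 in cerebellum and 0.081, -0.092 and 0.078 in cortex), and not every library correlated best with its own number.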
